A study of Rattus norvegicus with 9 samples.

Results

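The 8 genes described here are genes that neurons switch on within a short time of activity were followed in the frontal cortex of 9 adult male Wistar rats. They were the 3 Nr4a nuclear receptors (Nr4a1, Nr4a2 and Nr4a3), the dual-specificity phosphatases Dusp1, Dusp4 and Dusp6, and Btg2 and Ier2. They were taken by symbol from a table of 37209 genes, and all 8 were found and were among the 16837 genes that passed the filter on low counts. Control rats (A1, A2 and A6) stayed undisturbed with their mothers. The MS group (B3, B4 and B6) was parted from the mothers for 4 h a day from postnatal day (PND) 1 to PND 21. MS+EA rats (C3, C10 and C16) had the same separation and then electroacupuncture (EA) under isoflurane at the acupoints Baihui and Yintang, every other day from PND 61 to PND 81. Control and MS rats received the anaesthesia alone in that period, and the tissue was taken at 14 weeks of age. The study ran behavioural tests on rats of these groups. The paper does not say whether the 9 rats sequenced were among those tested. No sham EA group was sequenced, so the difference between MS+EA and MS rats contains needling and current together. The litter of each rat and the time between handling and removal of the tissue are not given in the sources used here.

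Nr4a receptors are nuclear receptors without a known classical ligand, whose activity follows from how much of them is made. Their genes, like Btg2 and Ier2, are immediate early genes, which are transcribed from factors already present in the cell when calcium, cAMP and the ERK kinases carry a signal to the nucleus. The Dusp genes of this group are induced by the same route and encode phosphatases that switch MAP kinases off, which closes a feedback loop. In cortex these RNAs rise with neuronal firing, novelty and stress and decay quickly.

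The cAMP response element (CRE) is the DNA motif bound by CREB, a factor that carries calcium and cAMP signals to such genes. Upstream sequences of 250 bases before the start of the gene were available for 6 of the 8 genes, namely Nr4a1, Nr4a2, Dusp1, Dusp6, Btg2 and Ier2. They come from RefSeq on the build GRCr8, whereas the counts were made on Rnor_6.0. The full CRE, TGACGTCA, stood in 3 of the 6 (Dusp1, Btg2 and Ier2), and in 1.59% of the 33469 windows of the same length in the table. The CRE core, TGACG on either strand, stood in 5 of the 6 and in 18.2% of all windows, a count that includes each full CRE. The share of G and C letters was 74.8%, 68.8% and 72% in Nr4a1, Dusp1 and Btg2. It was 52%, 55.6% and 53.2% in Nr4a2, Dusp6 and Ier2. The windows of the table were not matched for this share, so its part in the motif rates was not tested. Nr4a1 had 4 cores and no full CRE, Nr4a2 had 1 core, and Dusp6 had none in this window. The CArG box, the site of serum response factor, was sought only in its strict form: CC, then 6 letters that are A or T, then GG. It was found in none of the 6 and in 1.5% of all windows, and looser forms of it were not searched. The Nr4a site AAAGGTCA was found in none of the 6 and in 1.24%. The 4 sequences below are shown for their CRE matches and belong to genes whose highest level fell in the same Control rat, A2, as did that of Dusp6, which has no match in its window. Each is written 5′ to 3′ along the gene with full CREs and CRE cores in capitals.
Nr4a1, chr7:134259888-134260137 (+ strand): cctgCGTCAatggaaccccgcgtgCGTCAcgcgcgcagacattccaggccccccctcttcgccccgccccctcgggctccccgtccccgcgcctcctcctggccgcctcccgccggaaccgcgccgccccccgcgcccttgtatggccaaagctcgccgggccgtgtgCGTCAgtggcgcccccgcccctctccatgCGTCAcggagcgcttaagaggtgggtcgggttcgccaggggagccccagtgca
Dusp1, chr10:17184603-17184852 (+ strand): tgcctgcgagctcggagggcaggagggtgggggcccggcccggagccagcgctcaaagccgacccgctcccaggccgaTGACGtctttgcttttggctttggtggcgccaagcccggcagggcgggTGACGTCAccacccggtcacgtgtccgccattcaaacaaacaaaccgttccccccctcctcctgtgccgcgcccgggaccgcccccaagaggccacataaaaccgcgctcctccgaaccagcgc
Btg2, chr13:48087691-48087940 (- strand): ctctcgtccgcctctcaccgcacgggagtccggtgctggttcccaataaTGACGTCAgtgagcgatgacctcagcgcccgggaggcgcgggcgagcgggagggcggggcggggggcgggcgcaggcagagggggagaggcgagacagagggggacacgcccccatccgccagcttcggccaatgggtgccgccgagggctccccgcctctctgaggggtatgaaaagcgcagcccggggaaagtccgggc
Ier2, chr19:40399123-40399372 (+ strand): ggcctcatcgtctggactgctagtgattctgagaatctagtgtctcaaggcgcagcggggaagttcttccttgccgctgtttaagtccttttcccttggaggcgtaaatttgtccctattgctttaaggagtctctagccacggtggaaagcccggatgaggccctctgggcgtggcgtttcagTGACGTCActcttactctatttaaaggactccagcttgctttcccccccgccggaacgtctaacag
In Dusp1 the full CRE lay 124 to 117 bases before the start, in Btg2 201 to 194 bases and in Ier2 66 to 59 bases before it. These are matches of letters, and binding was not measured.

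Expression is given as CPM, read counts brought to a common library size after TMM scaling. The total per rat was 16153292 to 19007907 counts in the Control group, 16106381 to 17243320 in the MS group and 12479905 to 14913736 in the MS+EA group, so that the MS+EA libraries were the shallowest. The 8 genes together held 3615 to 8637 reads per rat. Markers of cortical excitatory neurons (Slc17a7, Camk2a, Neurod6 and Tbr1) were all present. Their summed level was 3680 to 4332 CPM in Control rats, 3736 to 3826 CPM in MS rats and 3162 to 3296 CPM in MS+EA rats. Each MS+EA rat thus lay below each other rat, which among single genes held for 5.89% of all tested. Most of this sum was Camk2a and Slc17a7, at -0.36 and -0.30 on the log2 scale in MS+EA against Control (edgeR adjusted p = 0.0387 and 0.0207), while Neurod6 and Tbr1 were at 0.29 and -0.01 and overlapped between the groups. The summed level of 4 blood cell markers was 67.8 to 139 CPM in Control, 157 to 219 CPM in MS and 151 to 215 CPM in MS+EA rats. The part of these differences, and of depth, in the results that follow was not tested. In bulk tissue, fewer cells of a type and less RNA per cell cannot be told apart. Nothing in the sources says whether rats of a group were littermates, so rats of a group may not be independent. The p-values treat them as independent and set each group difference against the spread between rats of a group. They refer to these 9 animals, and could be too small if littermates were used.

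Nr4a1 encodes Nur77, a classical immediate early product of neurons and immune cells. It stood at 58.9, 121 and 92.3 CPM in the Control rats A1, A2 and A6, at 77.7, 68.5 and 95.1 CPM in B3, B4 and B6 of the MS group, and at 70.1, 53.3 and 51.0 CPM in the MS+EA rats C3, C10 and C16. The MS+EA rats were low, but C3 lay above the MS rat B4 and above the Control rat A1. The group means were 90.7 ± 31.0 CPM in Control, 80.4 ± 13.5 CPM in MS and 58.1 ± 10.4 CPM in MS+EA rats (SD, n = 3 each).

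Nr4a2 encodes Nurr1, which is required for dopamine neurons and in the cortex is abundant in deep-layer and claustral cells. Its level was 15.7, 26.5 and 29.7 CPM in the Control rats, 16.5, 12.3 and 17.0 CPM in MS rats, and 42.9, 15.5 and 19.1 CPM in the MS+EA rats. A single MS+EA rat, C3, was far above the other 8 rats. The other MS+EA rats lay within or just above the range of the MS rats. C3 also had the highest summed level of 5 oligodendrocyte markers, 3906 CPM against 1675 to 3016 CPM in the other rats. For 9 markers of the deep cortical layers the sum was 205 CPM in C3, inside the range of 180 to 224 CPM of all rats. Of these 9, 7 were lower in MS than in Control rats (median log2 difference -0.22) and 7 were higher in MS+EA than in MS rats (median 0.43), the directions of Nr4a2. Cplx3 was at -0.66 and 1.09 and Syt6 at -0.69 and 1.04 in these comparisons (edgeR adjusted p = 0.186, 0.103, 0.220 and 0.184), and both were highest in C16 rather than in C3. In MS+EA against Control 7 of the 9 were higher and 2 lower. The smallest p there was that of Fezf2, which was lower (edgeR adjusted p = 0.0363), short of 1.5-fold. For 5 claustrum markers the sum in C3 was 381 CPM, inside the range of 323 to 439 CPM. The part of these tissue differences in the level of Nr4a2 was not tested.

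Nr4a3 encodes Nor1. It had 30.8, 57.9 and 88.5 CPM in the Control rats, 35.0, 32.3 and 47.6 CPM in MS rats, and 59.3, 37.8 and 42.8 CPM in the MS+EA rats. The Control rats alone spanned the values of all 9 rats. The rats A6 and C3 held the highest 2 levels of Nr4a2, of Nr4a3 and of Dusp4.

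Dusp1 encodes a nuclear phosphatase of the stress-activated kinases and ERK, and is also a known target of glucocorticoids. It had 61.6, 131 and 100.3 CPM in the Control rats, 89.0, 65.9 and 99.5 CPM in MS rats, and 54.4, 55.8 and 73.8 CPM in the MS+EA rats. The order of the rats resembled that of Nr4a1, with A2 highest and A1 lowest in the Control group. Dusp4, another nuclear phosphatase, had 10.1, 8.17 and 12.1 CPM in Control, 8.46, 8.07 and 9.44 CPM in MS, and 12.3, 6.43 and 10.02 CPM in MS+EA rats. Its groups overlapped throughout, and both ends of its range were MS+EA rats.

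Dusp6 encodes a cytoplasmic phosphatase that is selective for ERK. Its level was 39.0, 52.7 and 50.1 CPM in the Control rats, 39.9, 47.2 and 51.3 CPM in MS rats, and 34.5, 37.6 and 37.4 CPM in the MS+EA rats. Each MS+EA rat lay below each of the other 6 rats. Among the 8 genes this held for Dusp6 alone, and it held for 5.89% of all genes tested. The gap was narrow, from 37.6 CPM in C10 to 39.0 CPM in A1.

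Btg2 encodes an antiproliferative protein that recruits the machinery for mRNA deadenylation. It had 44.2, 102 and 23.8 CPM in the Control rats, 56.3, 38.03 and 65.7 CPM in MS rats, and 32.6, 34.2 and 39.2 CPM in the MS+EA rats. The highest and the lowest of all 9 rats were both Control rats, A2 and A6, at a ratio of 4.28. Ier2, an immediate early gene for a nuclear protein, had 17.0, 27.9 and 11.2 CPM in Control, 13.6, 22.3 and 20.9 CPM in MS, and 13.8, 11.99 and 14.1 CPM in MS+EA rats. A2 was again highest and A6 again lowest. In both genes the MS+EA rats lay close together, with a coefficient of variation of 9.70% for Btg2 and 8.50% for Ier2, against 71.4% and 45.4% in Control rats and 26.4% and 24.7% in MS rats. With 3 rats a group, this difference in spread was not tested.

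**Figure D1:**
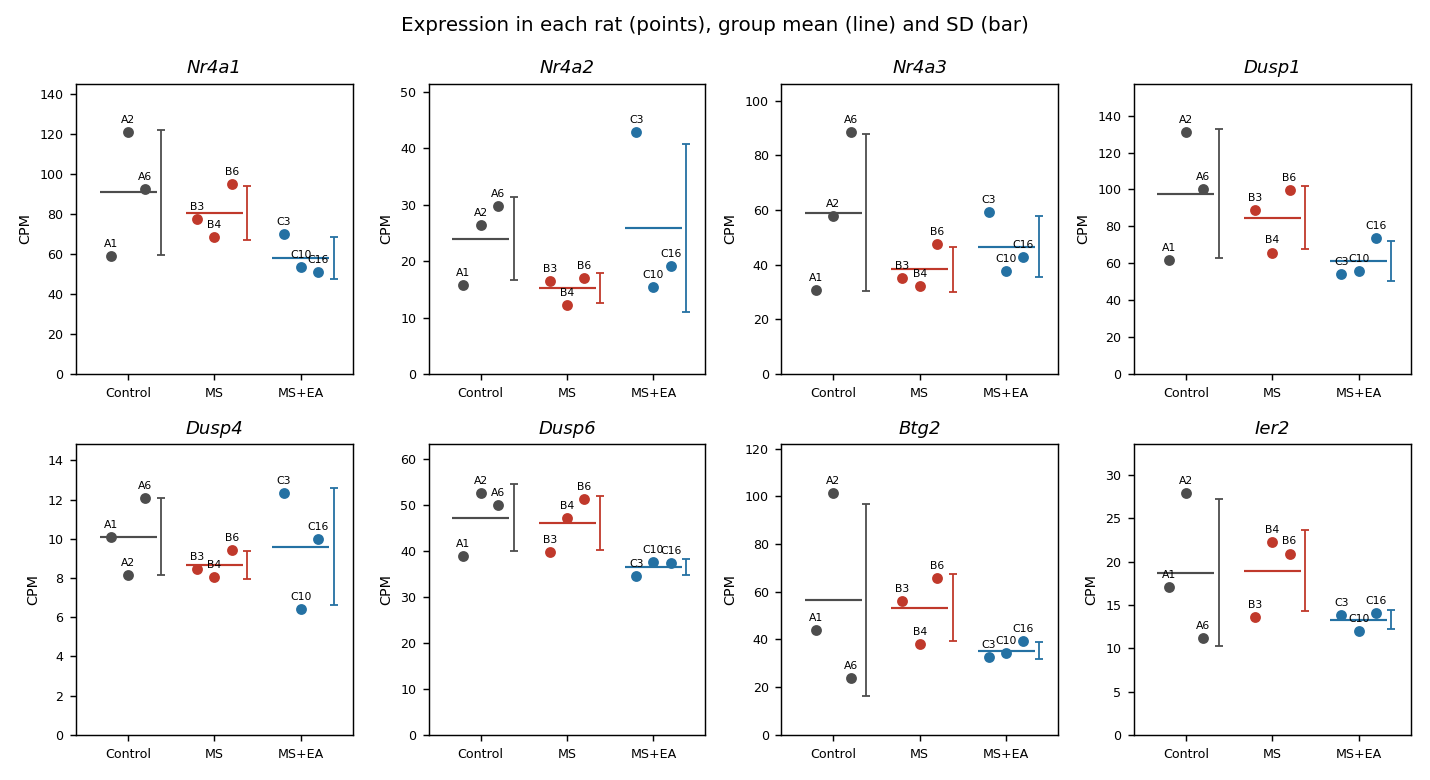
Expression of the 8 genes in CPM (vertical axes, from 0) in each of the 9 rats, by group, with the group mean as a horizontal line and the SD as a bar (n = 3). The 3 MS+EA rats lie below all other rats for Dusp6 only, and the Nr4a2 mean of the MS+EA group rests on C3 at 42.9 CPM.

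Single rats held the ends of most ranges. A2 had the highest level of 5 of the 8 genes, namely Nr4a1, Dusp1, Dusp6, Btg2 and Ier2. C3 had the highest level of 2 genes, Nr4a2 and Dusp4, and A6 of Nr4a3. A6 had the lowest level of Btg2 and Ier2 although its Nr4a2, Nr4a3 and Dusp4 were among the highest 2, so the 8 genes did not move as one. Among the lowest 3 rats of each gene, C10 appeared for 7 of the 8 genes, with Nr4a3 as the exception. Averaged over the 8 genes, log2 CPM relative to the mean of all rats ran from -0.39 in C10 to 0.54 in A2. The averages of the Control rats were -0.19, 0.54 and 0.17, those of the MS rats -0.07, -0.17 and 0.22, and those of the MS+EA rats 0.04, -0.39 and -0.15. The groups overlapped in this average.

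**Figure D2:**
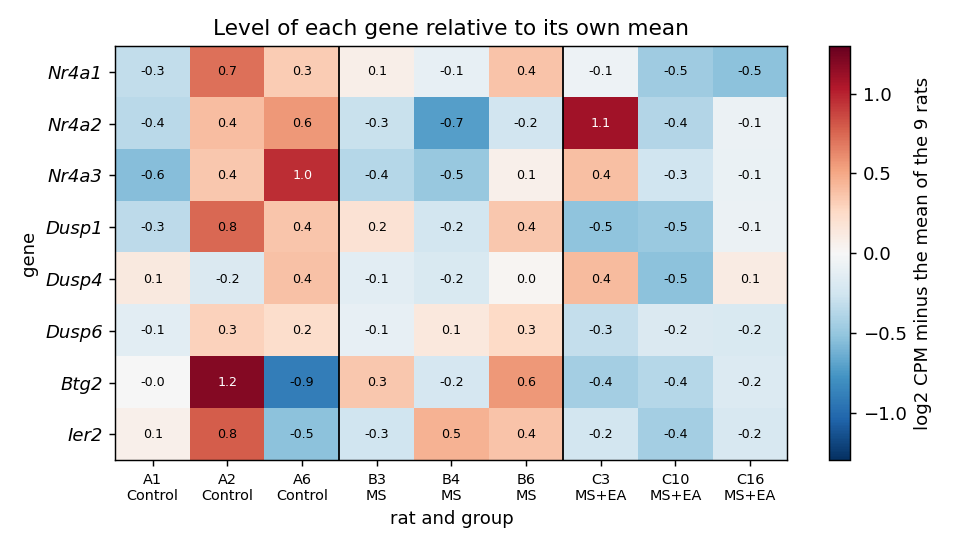
Log2 CPM of each gene (rows) in each rat (columns) minus the mean of that gene over the 9 rats, with Control, MS and MS+EA rats separated by lines. A2 is above the mean in all genes but Dusp4, A6 is high in Nr4a3 (0.96) and low in Btg2 (-0.90), and C3 is high in Nr4a2 (1.09).

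The spread between rats of a group was large for these genes. On the log2 CPM scale the within-group SD was 0.65 for Btg2, 0.55 for Nr4a2, 0.51 for Nr4a3, 0.44 for Ier2, 0.39 for Dusp1, 0.36 for Nr4a1, 0.32 for Dusp4 and 0.18 for Dusp6. Among about 1000 genes of nearest abundance, this put Btg2 at percentile 99.9, Dusp1 at 99.5, Nr4a1 and Nr4a3 at 99.4, Nr4a2 at 99.1, Ier2 at 97.6, Dusp4 at 86.9 and Dusp6 at 84.8. The biological coefficient of variation that edgeR assigned to them ran from 10.8% for Dusp6 to 31.5% for Btg2, with a common value of 12.7% over all genes.

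**Figure D3:**
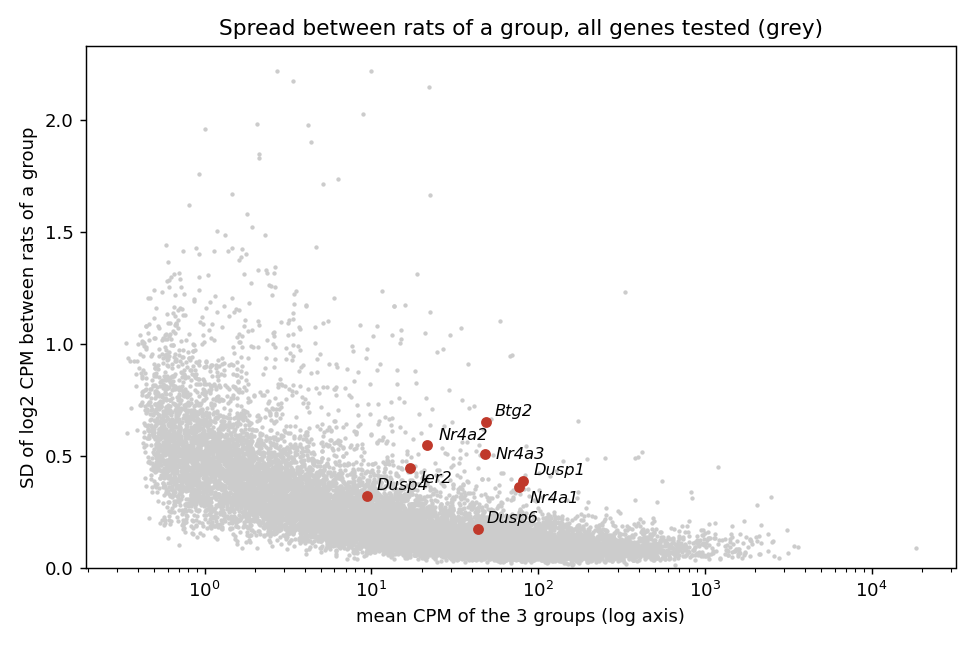
SD of log2 CPM between rats of the same group (vertical axis) against mean CPM of the 3 groups (horizontal log axis), for all genes tested (grey) and the 8 genes (red). Btg2, Nr4a2 and Nr4a3 lie above most genes of their abundance, with SDs of 0.65, 0.55 and 0.51, while Dusp6 lies closest to the bulk at 0.18.

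The first comparison asks what early separation left in the adult cortex. Between MS and Control rats, 7 of the 8 genes had a lower and 1 a higher fitted level, where 50.3% of all genes were lower, and the median of their log2 differences was -0.19 (0.00 over all genes tested). None of the 8 passed both thresholds of the study (adjusted p below 0.05, change beyond 1.5-fold) in edgeR's quasi-likelihood test, and 0.0238% of all tested genes did. At an unadjusted p under 0.05 the count of the 8 genes was also 0, against 10.6% of all genes, and DESeq2 and limma-trend passed 0 of the 8 as well. The largest log2 differences were in Nr4a2 at -0.65 (standard error 0.329, 95% interval -1.36 to 0.06, edgeR adjusted p = 0.510) and in Nr4a3 at -0.62 (standard error 0.294, 95% interval -1.26 to 0.01, edgeR adjusted p = 0.479). Both intervals held differences of more than 2-fold as well as no difference. Without the Control rat A6 the value of Nr4a3 was -0.21. For Nr4a1, Dusp1 and Dusp4 the values were -0.17, -0.20 and -0.22, and for Dusp6, Btg2 and Ier2 they were -0.03, -0.08 and 0.02. The interval for Dusp6, -0.29 to 0.23, was the narrowest of the 8, and that for Btg2, -0.88 to 0.72, the widest. Without A2 the signs of Nr4a1, Dusp1, Dusp6 and Btg2 turned, and Btg2 then stood at 0.64.

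The second comparison sets rats treated with EA against separated rats without it. Here 5 of the 8 genes were lower and 3 higher in MS+EA than in MS rats, where 49.9% of all genes were lower, and their median was -0.40 on the log2 scale (0.00 over all genes). Again 0 of the 8 passed both thresholds in edgeR, where 0.0178% of all genes did, and 0 passed in DESeq2 and in limma-trend. DESeq2 gave no adjusted p for Nr4a2, Dusp4 and Ier2 here, so it did not judge these genes. At an unadjusted p under 0.05, 2 genes were lower (Nr4a1 and Dusp6) and 1 was higher (Nr4a2), against 6.42% and 6.01% of all genes in those directions. Dusp6 was at -0.34 on the log2 scale (standard error 0.122, 95% interval -0.60 to -0.07, edgeR adjusted p = 0.315), and its groups did not overlap, which held in this direction for 9.60% of all genes. Nr4a1 had a value of -0.47 (standard error 0.213, 95% interval -0.93 to -0.01, edgeR adjusted p = 0.394). For Nr4a2 the value was 0.76 (standard error 0.331, 95% interval 0.04 to 1.48, edgeR adjusted p = 0.373), and without C3 it was 0.18. The values of Dusp1, Btg2 and Ier2 were -0.47, -0.60 and -0.51, and those of Nr4a3 and Dusp4 were 0.28 and 0.15. With 3 rats against 3 an exact permutation test of a single gene cannot give a p under 0.1.

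The balance of the genes within the Nr4a family was read as a ratio of counts in each rat. For every 100 reads of Nr4a1 there were 45.1, 47.1 and 50.03 reads of Nr4a3 in MS rats, and 84.7, 70.9 and 83.8 in the MS+EA rats. These groups did not overlap, and the ratio does not depend on how the libraries were scaled. The Control rats A1, A2 and A6 had 52.4, 47.9 and 95.9 reads, so that A6 alone was above the MS+EA rats and the others were near the MS rats. The reads of Nr4a2 per 100 of Nr4a1 were 21.3, 17.9 and 17.8 in MS rats, 61.2, 29.1 and 37.4 in the MS+EA rats and 26.7, 21.9 and 32.2 in the Control rats. For Btg2, which is outside the family, the reads per 100 of Nr4a1 were 72.45, 55.47 and 69.07 in MS rats. They were 46.53, 64.28 and 76.79 in the MS+EA rats, so that these groups overlapped. Dusp4, also outside the family, had 145, 129 and 157 reads in B3, B4 and B6, where Nr4a1 had 1332, 1096 and 1581. In C3, C10 and C16 it had 178, 96 and 126 reads, where Nr4a1 had 1010, 795 and 642. Relative to Nr4a1, Dusp4 was thus higher in each MS+EA rat than in each MS rat. A ratio to Nr4a1 that kept these groups apart was therefore not particular to the family. These ratios were examined after the values had been seen and were not tested. How often the ratio of other pairs of genes keeps the groups apart was not counted.

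The third comparison spans both the separation and the treatment, and its Control and MS+EA rats are those of the comparisons above. In MS+EA relative to Control rats 7 of the 8 genes were lower, where 49.1% of all genes were, and their median was -0.43 on the log2 scale (0.01 over all genes). In edgeR 0 of the 8 passed both thresholds, whereas 1.37% of all genes did, and 0.119% did so by being lower. DESeq2 and limma-trend also passed 0 of the 8, although Dusp6 had an adjusted p of 0.0399 in DESeq2, and of 0.0322 in edgeR with every gene of at least 1 count tested, short of 1.5-fold in both. At an unadjusted p under 0.05, 3 genes were lower, against 10.6% of all genes in that direction. These were Nr4a1 at -0.64 (standard error 0.213, 95% interval -1.10 to -0.18, edgeR adjusted p = 0.0979), Dusp1 at -0.67 (standard error 0.228, 95% interval -1.16 to -0.18, edgeR adjusted p = 0.102) and Dusp6 at -0.37 (standard error 0.122, 95% interval -0.63 to -0.11, edgeR adjusted p = 0.0941). Nr4a1 and Dusp1 passed both thresholds when the Control rat A1 was left out, at -0.88 and -0.92 (edgeR adjusted p = 0.0434 and 0.0494), and when every gene with at least 1 count was tested (edgeR adjusted p = 0.0025 and 0.00239). Without A2 they stood at -0.37 and -0.40. Dusp6 did not overlap between these groups either, which in this direction held for 12.9% of all genes. Btg2 and Ier2 were at -0.68 and -0.49, and without A2 at 0.05 and -0.09. For Nr4a2, Nr4a3 and Dusp4 the values were 0.11, -0.34 and -0.08. One edgeR test of any difference among the 3 groups passed 0 of the 8 genes at an adjusted p under 0.05, where 2.03% of all genes passed, and the smallest adjusted p was that of Dusp6, 0.168.

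**Figure D4:**
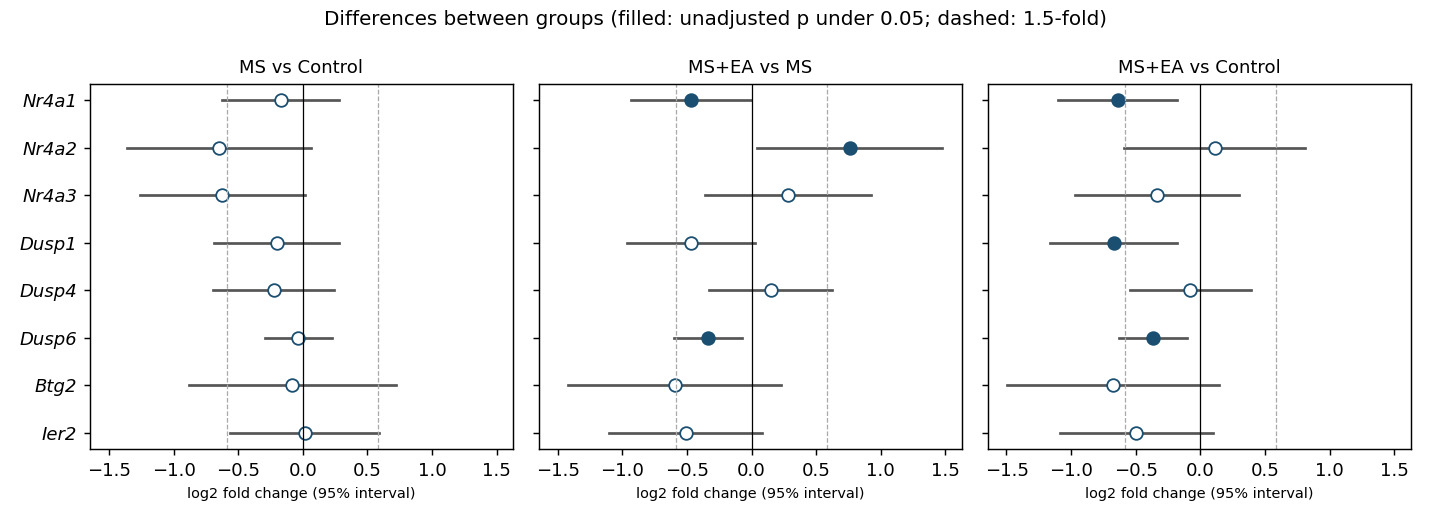
Log2 fold change of each gene with its 95% interval in the 3 comparisons, filled where the unadjusted p was under 0.05, with 0 as a solid and 1.5-fold as dashed lines. No gene was filled in MS against Control, and Nr4a1 (-0.47 and -0.64) and Dusp6 (-0.34 and -0.37) were filled in both comparisons that involve MS+EA rats.

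Related genes were followed in the same fit, in 7 lists with 99 tested genes in all. In MS against Control and in MS+EA against MS, 0 of the 99 passed both thresholds in edgeR, where 0.0238% and 0.0178% of all genes did. In MS+EA against Control 3 were lower and 0 higher past both, where 0.119% of all genes passed by being lower and 1.37% in either direction. The 3 were Junb, Fosb and Egr4. They belong to a list of 26 tested activity-induced genes, of which 24 were lower in MS+EA than in Control rats, at a median of -0.50 on the log2 scale. This list was lower in 19 of 26 genes, with a median of -0.20, in MS against Control, and in 22 of 26, with a median of -0.26, in MS+EA against MS. Of all genes, 49.1% were lower in MS+EA against Control, 50.3% in MS against Control and 49.9% in MS+EA against MS. Junb, a subunit of the AP-1 transcription factor, fell from 64.3 ± 14.2 CPM in Control to 34.5 ± 4.76 CPM in MS+EA rats (SD, n = 3 each), a log2 difference of -0.90 (standard error 0.159, edgeR adjusted p = 0.0116). Fosb, its partner in AP-1, fell by 1.19 (edgeR adjusted p = 0.0256) and Egr4, a zinc finger factor, fell by 1.04 (edgeR adjusted p = 0.0418) on the log2 scale. Egr3, of the same family, was at -0.54 (edgeR adjusted p = 0.0407), short of 1.5-fold, and Fos at -1.23 (edgeR adjusted p = 0.0538). Junb stood at 43.6 ± 5.69 CPM in MS rats. In MS against Control, Junb, Fosb and Egr4 were at -0.56, -0.64 and -0.68 (edgeR adjusted p = 0.190, 0.380 and 0.362). In MS+EA against MS they were at -0.34, -0.55 and -0.36 (edgeR adjusted p = 0.414, 0.424 and 0.619). Egr3 was at 0.07 and -0.61 in these comparisons (edgeR adjusted p = 0.896 and 0.184). Homer1, 1 of the 2 genes of this list that were higher in MS+EA than in Control rats, went the other way. Its log2 difference from Control was 0.38 in MS (edgeR adjusted p = 0.219) and 0.37 in MS+EA rats (edgeR adjusted p = 0.0710).

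The other lists were closer to the median of all genes, of which 49.1% were lower in MS+EA than in Control rats and 50.3% lower in MS than in Control rats. Of 7 other dual-specificity phosphatases that act on MAP kinases, 5 were lower in MS+EA than in Control rats, with a median of -0.10, and 6 were lower in MS than in Control rats, with a median of -0.14. Dusp8, which acts on stress-activated kinases, was at -0.45 in MS+EA against Control (standard error 0.0911, edgeR adjusted p = 0.0183), a difference under 1.5-fold, with means of 113 CPM in Control and 82.7 CPM in MS+EA rats. Of 16 other ERK feedback genes, which include the Sprouty and Spred inhibitors of the pathway, 9 were lower in MS+EA than in Control rats, with a median of -0.05. Of these, Rasal1, which switches Ras off, was at -0.35 (edgeR adjusted p = 0.0402). Etv5, a factor induced by ERK, had the smallest p of this list in MS+EA against MS, at -0.29 (edgeR adjusted p = 0.260). A list of 7 tested genes grouped by the names Ier, Btg and Tob had a median of -0.07, with 4 of 7 lower. It shares Ier3 with the ERK feedback list. The kinases of the ERK and other MAP kinase cascades had 14 of 21 lower and a median of -0.08, with Rps6ka3, a kinase activated by ERK, higher at 0.55 and Map2k2 lower at -0.27 (edgeR adjusted p = 0.0313 and 0.0418), both short of 1.5-fold.

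Among 17 transcription factors and coactivators upstream of these genes, 9 were lower and 8 higher in MS+EA than in Control rats, with a median of 0.00. Of all genes, 49.1% were lower in that comparison. Creb1, which encodes CREB, was at 66.0 ± 3.08 CPM in Control, 89.7 ± 4.43 CPM in MS and 90.9 ± 5.13 CPM in MS+EA rats (SD, n = 3 each). Its log2 fold change was 0.44 in MS (standard error 0.0718, edgeR adjusted p = 0.0578) and 0.46 in MS+EA (standard error 0.0721, edgeR adjusted p = 0.00795) relative to Control, both under 1.5-fold. Srf, which encodes the factor of the CArG box, was at -0.34 in MS+EA against Control (edgeR adjusted p = 0.0504). Of the partners and reported targets of Nr4a proteins, 7 were tested, and 5 were lower in MS+EA than in Control rats with a median of -0.04. Th, the tyrosine hydroxylase gene that Nurr1 controls in dopamine neurons, was at 0.82 in MS+EA against MS (edgeR adjusted p = 0.390). Its level was 1.17 to 1.32 CPM in MS rats, and 1.46, 1.54 and 3.58 CPM in C3, C10 and C16, so that the MS+EA mean of 2.19 CPM rests on C16.

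**Figure D5:**
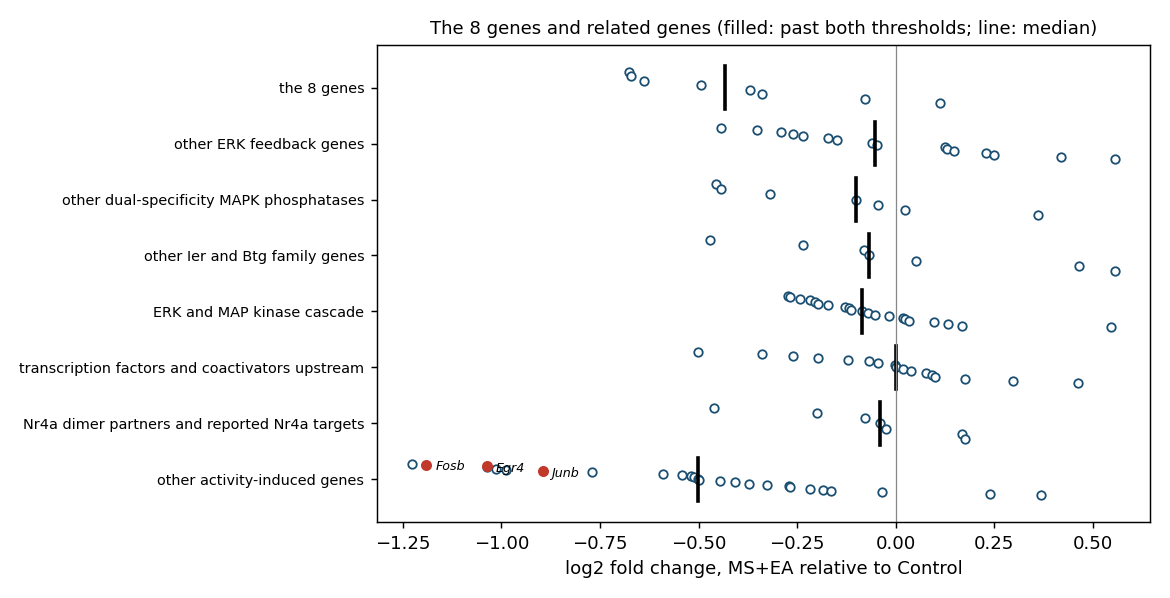
Log2 fold change in MS+EA relative to Control rats of the 8 genes and of 7 lists of related genes (points, filled past both thresholds; line, median of the list). The 8 genes have a median of -0.43 and the other activity-induced genes one of -0.50, with Junb, Fosb and Egr4 filled, and the medians of the other lists lie between -0.10 and 0.00.

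Genes with the most similar pattern were sought by Pearson correlation of log2 CPM over the 9 rats among all other tested genes, as a description without a test. For the average of the 8 genes these were Myom3 at 0.914, Fam71e1 at 0.885, Pcsk5 at 0.884, Egr1 at 0.865 and LOC102553002 at 0.863. Egr1, a zinc finger immediate early gene, ranged from 63.7 to 116 CPM. For Nr4a2 they were Sstr2, a somatostatin receptor gene, at 0.979, LOC102555425 at 0.958 and Mcts2 at 0.956. For Nr4a3 they were Tex26 at 0.982, Ptpn1 at 0.931 and Mif at 0.931, and for Nr4a1 LOC103691212 at 0.932, Tp73 at 0.917 and Dus3l at 0.913. All 9 points share their libraries, and several of these genes had few reads, such as Tex26 at 0.43 to 1.31 CPM and Tp73 at 0.27 to 1.10 CPM.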

How the data were processed

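Frontal cortex RNA, freed of rRNA, was read on a HiSeq machine. After a FastQC filter the authors used HISAT2 to place reads on Rnor_6.0 (version 2.0.4 in the submitters' processing notes) and deposited raw whole-number counts per gene for 9 rats. The counting program, strand setting and treatment of reads with several locations are not given in the sources used here, so overlapping antisense reads cannot be separated.

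Groups came from the sample labels. Counts were analysed with edgeR 4.0.16 in R 4.3.3: TMM scaling, filterByExpr (minimum count 10, 16837 genes kept), a quasi-likelihood fit of the 3 groups over all 9 rats, and Benjamini-Hochberg adjustment over all genes kept. Standard errors were derived from each log2 difference and its F statistic. The thresholds (adjusted p below 0.05, change beyond 1.5-fold) are those of the study, whose EBSeq was not run. Totals of 12479905 to 19007907 counts per rat set the precision. The members and lists were chosen with earlier results of these data known. Named are the 8 genes, related genes past the thresholds or else up to 3 with the smallest p per list and comparison, and the genes of closest pattern. Fos, outside this rule, was named after its values were seen. Alternatives were other scaling, filters and fits, DESeq2 1.42.0, limma 3.58.1 (limma-trend), no fold threshold and each rat left out. In each of 2 lists 1 gene is not reported here. The code was tested on simulated data. Plots used Python 3.11.15 and matplotlib 3.10.9.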

Additional observations from a re-analysis of the deposited data

How the results depend on the processing

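The log2 differences of the 8 genes were recomputed under 17 alternatives, 408 values in all, of which 384 kept their direction and their side of the thresholds, 20 turned direction and 4 newly passed. Values without an adjusted p, those of Nr4a2, Dusp4 and Ier2 in DESeq2 for MS+EA against MS, were counted as not passing. The 4 were Nr4a1 and Dusp1 in MS+EA against Control, with every gene of at least 1 count tested and without the Control rat A1. In MS against Control, leaving out 1 rat in turn gave -0.41 to 0.086 for Nr4a1, -0.45 to 0.065 for Dusp1, -0.16 to 0.060 for Dusp6, -0.44 to 0.64 for Btg2 and -0.25 to 0.41 for Ier2. In MS+EA against MS it gave -0.073 to 0.37 for Dusp4. In MS+EA against Control it gave -0.46 to 0.38 for Nr4a2, -0.65 to 0.083 for Nr4a3, -0.30 to 0.15 for Dusp4 and -1.03 to 0.053 for Btg2. Scaling by total counts gave -0.0038 for Ier2, and limma-trend 0.13 for Btg2, both in MS against Control. Over all genes, edgeR passed 4, 3 and 230 in MS against Control, MS+EA against MS and MS+EA against Control. With every gene of at least 1 count tested these were 207, 72 and 469, of the related genes 1, 1 and 8 passed, of the 8 genes 2 passed in MS+EA against Control, and 3 passed the test of any group difference. Leaving out 1 rat gave 2 to 22, 1 to 4 and 71 to 304 genes, 0 to 2 of the 8 genes and 1 to 6 related genes in MS+EA against Control. At least 10 counts in every rat gave 0 genes in MS+EA against MS, DESeq2 gave 70 in MS against Control and 6 in MS+EA against MS, and fits of the 6 rats compared gave 11 and 1. Bias-adjusted deviances, an alternative chosen after seeing the data, gave 1 in MS+EA against MS. Without the fold threshold, 910 genes and 10 related genes passed in MS+EA against Control. The cause of these changes was not tested. No paired analysis was possible because the groups hold different animals and share fewer than 2 replicate numbers. With 3 rats a group, each of the 8 genes had a 95% interval that reached beyond 1.5-fold in at least 1 comparison.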
